A study of Mus musculus with 8 samples.

Results

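The genes described here build cholesterol and fatty acids or regulate that synthesis. They were chosen, with earlier results of these data known, as a list of 29 gene symbols. Of these, 28 were among the 19938 genes tested. The signal of Acat2, a thiolase gene of the first step, was not analysed here, and this gene entered only the promoter counts. A transcript cluster is a group of probes along 1 transcript, and the brightest one was used for a gene with several. The study exposed cultured mouse hippocampal neurons to 50 µM bicuculline, which blocks GABA-A receptors and so raises network firing. The groups were exposed for 0, 30, 180 or 300 min, and each held 2 replicates that the labels call biological, 1 array each (Affymetrix Mouse Gene ST 1.0, 8 in all). Every culture was prepared from ICR mice, an outbred strain, at E17.5 and was 10 days old. No group carried a transgene or deletion. The labels gave no culture without bicuculline at the later times, so time in medium and exposure cannot be told apart.

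Cholesterol is made from acetyl-CoA through mevalonate, isoprenoid diphosphates, squalene and lanosterol, and a series of demethylation, isomerisation and reduction steps then turns lanosterol into cholesterol. The brain makes its own cholesterol, because lipoproteins of the blood hardly cross the blood-brain barrier, and in the mature brain astrocytes supply much of it to neurons. Most genes of the pathway are targets of SREBP transcription factors, encoded by Srebf1 and Srebf2. SREBPs stay in the endoplasmic reticulum, bound to SCAP and to INSIG proteins, while sterols are plentiful, and are carried to the Golgi and cut there when sterols fall. Fatty acid synthesis starts from the same acetyl-CoA, with acetyl-CoA carboxylase and fatty acid synthase, and its genes are SREBP targets too.

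Promoter sequence is shown for 3 genes chosen by their late changes: Mvd and Hsd17b7, whose late changes were among the most negative, and Hmgcs1, an early enzyme of the pathway whose change was near 0. Each line gives the 250 bases before the annotated start, from RefSeq on assembly GRCm38.p6, 5′ to 3′ on the gene's strand. Capitals mark a CCAAT box (CCAAT, bound by NF-Y, a partner of SREBP), an E-box (CACGTG) or a sterol regulatory element (TCACNCCAC), searched on both strands. The windows lie at chr8:122443423-122443672 (minus strand), chr1:169969206-169969455 (minus strand) and chr13:119690101-119690350 (plus strand).
Mvd: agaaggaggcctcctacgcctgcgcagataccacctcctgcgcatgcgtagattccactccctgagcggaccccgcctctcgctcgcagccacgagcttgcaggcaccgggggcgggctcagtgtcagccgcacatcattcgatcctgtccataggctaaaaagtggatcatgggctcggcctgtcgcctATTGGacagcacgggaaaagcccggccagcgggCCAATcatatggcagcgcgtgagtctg
Hsd17b7: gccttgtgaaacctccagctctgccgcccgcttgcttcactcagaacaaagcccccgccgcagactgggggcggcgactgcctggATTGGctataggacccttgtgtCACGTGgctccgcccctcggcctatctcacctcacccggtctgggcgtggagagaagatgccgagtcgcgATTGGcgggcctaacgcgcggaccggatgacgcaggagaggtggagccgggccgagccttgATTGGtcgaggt
Hmgcs1: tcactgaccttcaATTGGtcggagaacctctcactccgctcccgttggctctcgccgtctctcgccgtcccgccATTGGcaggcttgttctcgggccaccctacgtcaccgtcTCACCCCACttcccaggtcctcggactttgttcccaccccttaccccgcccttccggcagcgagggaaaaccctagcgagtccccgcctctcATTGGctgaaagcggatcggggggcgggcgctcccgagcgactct

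Of the 29 listed genes, 23 had at least 1 such window in the table, and a gene with several windows was counted once. A CCAAT box stood in a window of 19 of these 23 genes, against 37.5% of all genes with a window. The GC box (GGGCGG), searched as well but not marked above, also stood in 19 of the 23, against 35.4% of all genes. The higher share was therefore not particular to the CCAAT box. The genes with a window were not restricted to those with signal on the arrays, and no share among such genes was counted. An E-box stood in 5 of the 23, among them Hsd17b7 and Insig1, against 6.86% of all genes. The sterol regulatory element, as these letters, was found in the window of Hmgcs1 alone among the 23, against 1.22% of all genes. The cAMP response element (TGACGTCA), which binds the activity-regulated factor CREB, was found for 0 of the 23 genes and for 1.77% of all genes. A match describes these letters only and is not a binding site shown by these data.

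The signals were on a log2 scale, so that a difference of 1 is a doubling of signal. Array medians ranged from 4.84 to 4.88, and replicate arrays correlated at r between 0.991 and 0.994 across the genes tested. Npas4, a transcription factor gene induced by neuronal activity, had 5.67 and 5.96 at 0 min and 9.67 and 9.72 at 30 min. It had 7.65 and 7.43 at 180 min and 7.54 and 7.83 at 300 min. Npas4 thus set 0 min, 30 min and the later times apart. Its arrays of 180 and 300 min overlapped, so it could not check these 2 labels against each other. All 28 genes lay above the level of genes that neurons should not express, with means over the arrays from 6.06 to 10.82 against 4.46, the 95th percentile of 1027 olfactory receptor genes. On single arrays, 67.3% to 69% of all genes tested lay above that percentile. The neuronal label fitted the marker genes, since Stmn2 averaged 11.57 and Syt1 10.61, and all 6 pan-neuronal genes were above that percentile. Of the astrocyte markers, 9 of 10 were above it as well, led by Aldoc at 7.86 and Slc1a2 at 7.62, and Gjb6 was below it at 3.86. Of the oligodendrocyte markers 5 of 7 were above it and of the microglial markers 5 of 7, both near the share of all genes. Opalin (3.58), Mag (4.38), P2ry12 (3.75) and Itgam (4.42) were below it. For fibroblasts and meninges, 5 of 6 markers were above it, led by Col1a1 at 8.06 and Dcn at 7.15, and Lum was below it at 3.28. For oligodendrocyte precursors, 4 of 6 were above it. Fewer cells of a type and less RNA per cell cannot be told apart in such cultures.

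The first comparisons set each time against 0 min. At 180 min, 24 of the 28 genes had a log2 change below 0, with a median of −0.22, whereas the median of all genes tested was −0.001 and 50.1% of them were below 0. The signals at 180 min lay wholly below those at 0 min for 20 of the 28 genes and wholly above for 0, beside 22.6% and 21.1% of all genes. No gene of the list passed the test in either direction at 180 min (limma, adjusted p under 0.05 over 19938 genes), a threshold passed downwards by 0.12% and upwards by 0.211% of all genes. At an unadjusted p under 0.05, 11 were lower and 0 were higher, beside 7.07% and 5.71% of all genes.

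At 300 min, 22 of the 28 genes were below 0, with a median of −0.15 against −0.003 for all genes, of which 50.6% were below 0. The arrays of 300 min lay wholly below those of 0 min for 14 genes and wholly above for 2, Pmvk and Scap, beside 19.6% and 18.8% of all genes. None passed the test (limma), which 0.0602% of all genes passed downwards and 0.226% upwards. At an unadjusted p under 0.05, 7 were lower and 0 higher, beside 4.71% and 4.25% of all genes. At 30 min the same genes were close to their 0 min level, with a median of −0.04 and a range from −0.29 for Nsdhl to 0.12 for Srebf2. At 30 min 19 genes were below 0, beside 49.8% of all genes, and the arrays lay wholly below those of 0 min for 7 genes and wholly above for 3, beside 18.3% and 19.2%. None passed at 30 min (limma, beside 0.015% of all genes downwards and 0.0802% upwards), and 0 had an unadjusted p under 0.05 in either direction, beside 2.34% and 2.76% of all genes. The 3 comparisons share the 0 min arrays, so their values are not independent of each other.

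**Figure D1:**
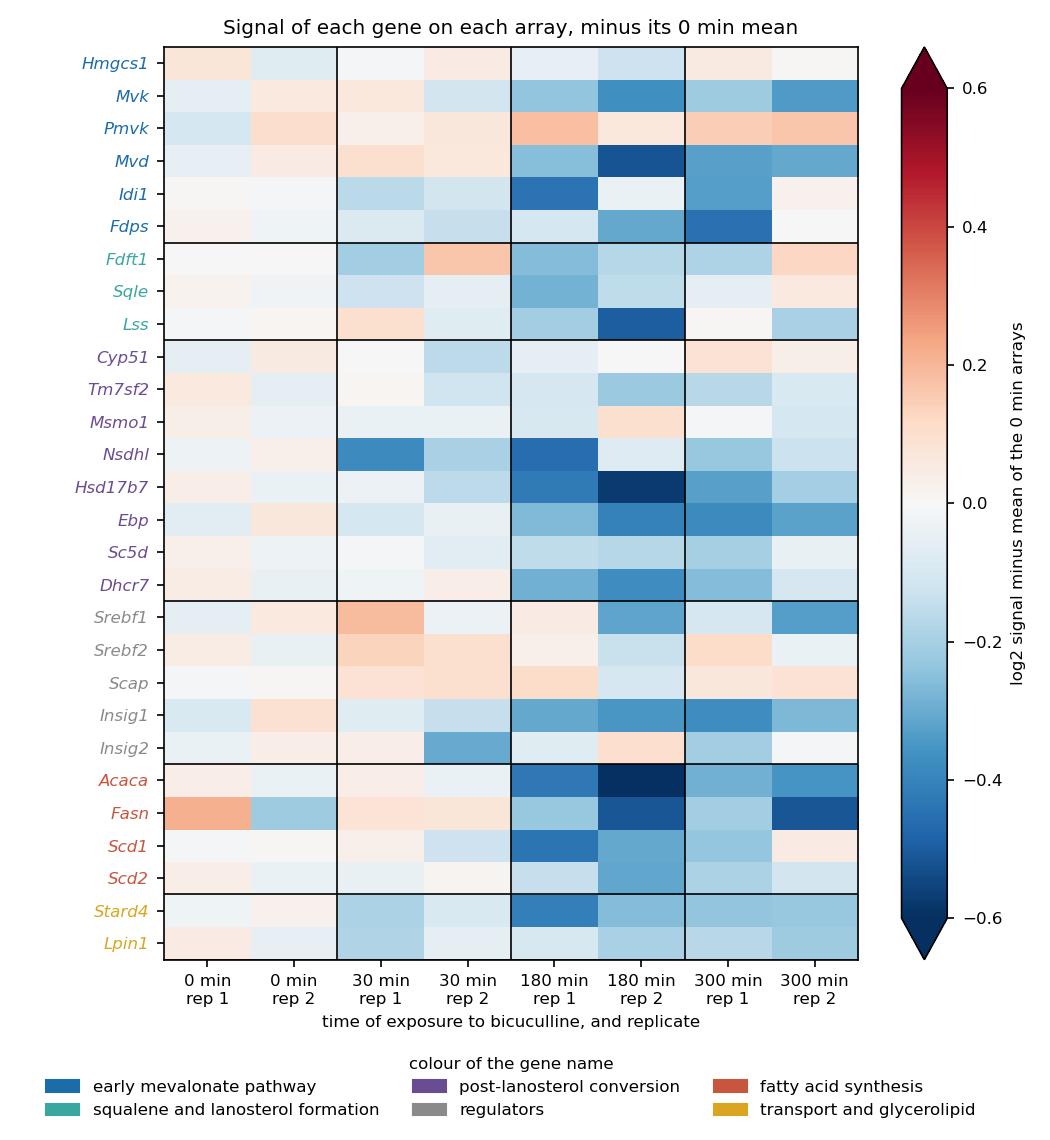
Log2 signal of each of the 28 genes (rows, grouped by role) on each of the 8 arrays (columns, by time and replicate), minus the gene's mean over the 0 min arrays; blue is lower and red is higher. Most rows are blue on the 4 arrays of 180 and 300 min, with 24, 24, 22 and 20 genes below their 0 min mean. The shares of all genes tested below theirs were 52.5%, 49.5%, 51.8% and 50.5% on these arrays. Pmvk, Cyp51, Msmo1, Scap and Srebf2 are near white or red.

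The shift was seen on each late array. All arrays were set against the same 0 min mean, so their values are not independent of each other. The median difference from the 0 min mean over the 28 genes was −0.01 and −0.05 on the arrays of 30 min, −0.22 and −0.24 on those of 180 min and −0.20 and −0.10 on those of 300 min. Over all genes tested the same median stayed between −0.01 and 0.002 on these 6 arrays. The second 300 min array was the nearest of the late arrays to the 0 min level.

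The late times (180 and 300 min) were also set together against the early times (0 and 30 min), with 4 arrays on each side. This comparison, like the list, was chosen with earlier results of these data known. Acaca and Mvd fell in this comparison (limma, adjusted p under 0.05) and none rose, beside 1.01% of all genes that fell and 1.2% that rose. Of the 28 genes, 25 had a change below 0, with a median of −0.14 and a range from −0.45 to 0.12, against a median of −0.003 over all genes, of which 51% were below 0. For 9 genes all 4 late arrays lay below all 4 early arrays, beside 5.36% of all genes, and for 0 genes they lay above, beside 3.47%. These 9 were Mvk, Mvd, Hsd17b7, Ebp, Dhcr7, Insig1, Acaca, Scd2 and Stard4. At an unadjusted p under 0.05, 11 genes were lower and 0 higher, beside 8% and 6.32% of all genes. An F test over the 4 times called 0 of the 28 genes (limma, beside 0.813% of all genes), and 9 had an unadjusted p under 0.05, beside 11% of all genes.

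**Figure D2:**
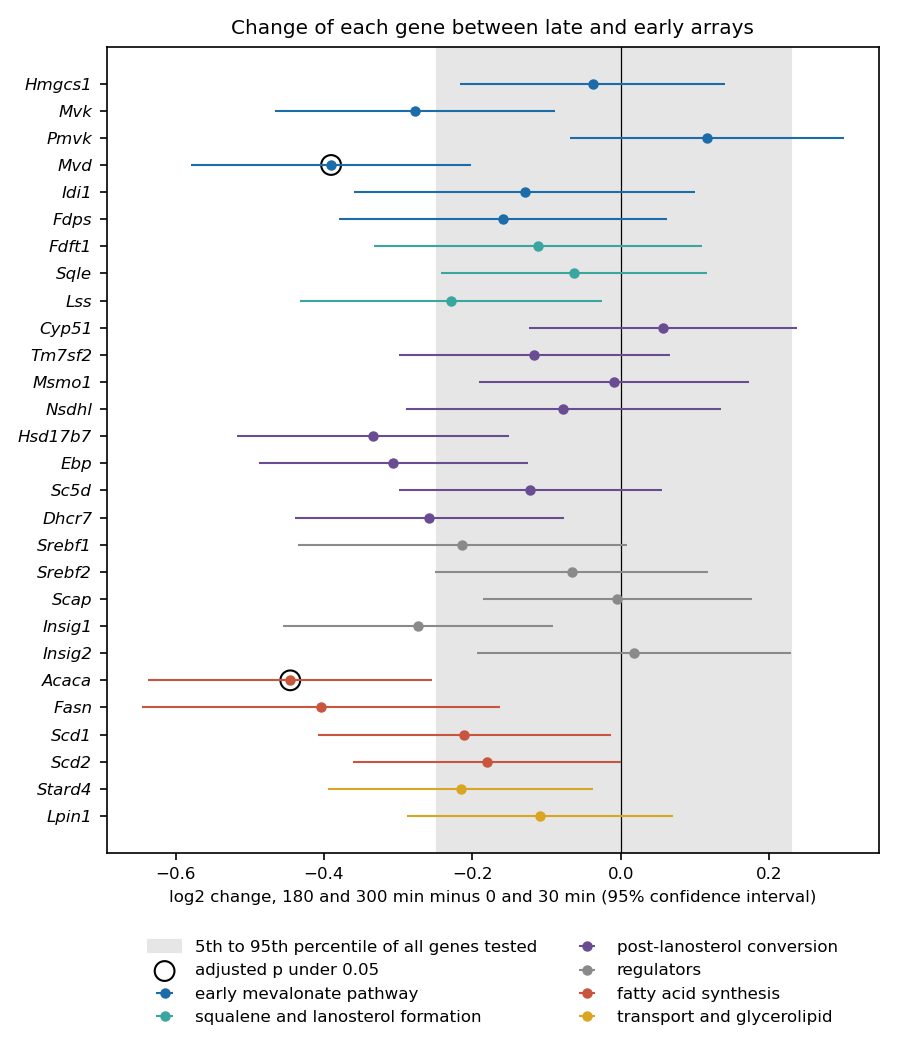
Log2 change of each of the 28 genes between late arrays (180 and 300 min) and early arrays (0 and 30 min), with its 95% confidence interval; colours give the role, the grey band spans the 5th to the 95th percentile of all genes tested (−0.25 to 0.23) and rings mark an adjusted p under 0.05. Acaca at −0.45 and Mvd at −0.39 carry the rings, and Mvk, Hsd17b7, Ebp, Dhcr7, Insig1 and Fasn also lie left of the band.

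Of the early mevalonate pathway, 6 of 7 genes were measured. Mvd fell, 5 of the 6 did not pass and 5 were below 0 in the late comparison. Mvd encodes the decarboxylase that makes isopentenyl diphosphate, the first isoprenoid unit. Its signal was 8.89 and 8.99 at 0 min, 9.04 and 9.00 at 30 min, 8.69 and 8.42 at 180 min and 8.62 and 8.63 at 300 min. All late arrays were below all early ones, and it averaged 8.59 ± 0.12 on the late arrays and 8.98 ± 0.06 on the early arrays (SD, n = 4 each). Mvd fell by 23.7% (log2 change −0.39 ± 0.09 SE, limma adjusted p = 0.0343). The call held without the first 180 min array and was lost without any other single array (highest adjusted p 0.152, limma), while the change stayed between −0.46 and −0.32.

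Mvk, the kinase gene of mevalonate, had 7.72 and 7.84 at 0 min, 7.85 and 7.67 at 30 min, 7.55 and 7.41 at 180 min and 7.57 and 7.44 at 300 min. The 4 late arrays were again the lowest of the 8, with a change of −0.28 ± 0.09 SE (limma adjusted p = 0.133). The other steps had smaller changes. Hmgcs1, which makes the precursor of mevalonate, averaged 10.44 ± 0.08 on the late arrays and 10.48 ± 0.07 on the early arrays (SD, n = 4 each), and the 95% interval of its change ran from −0.22 to 0.14. Pmvk, the next kinase after Mvk, had the highest change of the list, 0.12 ± 0.09 SE, and did not pass. The isomerase gene Idi1 and the farnesyl diphosphate synthase gene Fdps had changes of −0.13 ± 0.11 SE and −0.16 ± 0.10 SE, with late arrays that overlapped the early ones.

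The 3 genes that form squalene and lanosterol were lowest at 180 min, and none passed. Lss, the lanosterol synthase gene, had 7.74 and 7.77 at 0 min, 7.85 and 7.68 at 30 min, 7.55 and 7.26 at 180 min and 7.76 and 7.56 at 300 min. Its 180 min arrays were below every array of the other times, and the 300 min arrays overlapped the early ones. The change was −0.35 ± 0.13 SE at 180 min (limma adjusted p = 0.293) and −0.10 ± 0.13 SE at 300 min (limma adjusted p = 0.897). Sqle, the squalene epoxidase gene of a rate-limiting step, was also lowest at 180 min, with changes of −0.22 ± 0.12 SE at 180 min and 0.004 ± 0.118 SE at 300 min. Fdft1, the squalene synthase gene, had changes of −0.21 at 180 min and −0.03 at 300 min. A second transcript cluster of Fdft1 had −0.15 and 0.09.

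Of the 8 genes that convert lanosterol to cholesterol, none passed in the late comparison and 7 were below 0. Hsd17b7, a keto reductase gene of the demethylation steps, had the largest difference at 180 min in the sterol branch. It had 8.33 and 8.25 at 0 min, 8.26 and 8.13 at 30 min, 7.86 and 7.72 at 180 min and 7.97 and 8.09 at 300 min. The 180 min arrays were the lowest and the 300 min arrays lay between them and the early ones. The change was −0.50 ± 0.12 SE at 180 min (limma adjusted p = 0.112) and −0.33 ± 0.09 SE for the late arrays (limma adjusted p = 0.0597).

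Ebp, a sterol isomerase gene, had 6.37 and 6.51 at 0 min, 6.34 and 6.39 at 30 min, 6.17 and 6.03 at 180 min and 6.06 and 6.12 at 300 min. It was as low at 300 min as at 180 min, with a late change of −0.31 ± 0.08 SE (limma adjusted p = 0.0819). Dhcr7, the reductase gene of a final step, had 8.43 and 8.34 at 0 min, 8.36 and 8.42 at 30 min, 8.10 and 8.01 at 180 min and 8.12 and 8.28 at 300 min. All its late arrays were below its early arrays, by −0.26 ± 0.08 SE (limma adjusted p = 0.146). Nsdhl, a sterol dehydrogenase gene, was among the 7 genes whose 30 min arrays lay wholly below those of 0 min, beside 18.3% of all genes. It had 9.24 and 9.31 at 0 min, 8.89 and 9.08 at 30 min, 8.82 and 9.20 at 180 min and 9.05 and 9.15 at 300 min, so that it was already below its 0 min level at 30 min. Its change at 30 min was −0.29 ± 0.14 SE (limma adjusted p = 0.957). The others of these 7 were Idi1, Fdps, Sqle, Msmo1, Stard4 and Lpin1, and differences in timing between genes were not tested. Sc5d and Tm7sf2, genes of a desaturase and a reductase, each had a late change of −0.12. Cyp51 and Msmo1, which remove methyl groups from lanosterol, had 0.06 and −0.01, with 95% intervals from −0.12 to 0.24 and from −0.19 to 0.17.

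**Figure D3:**
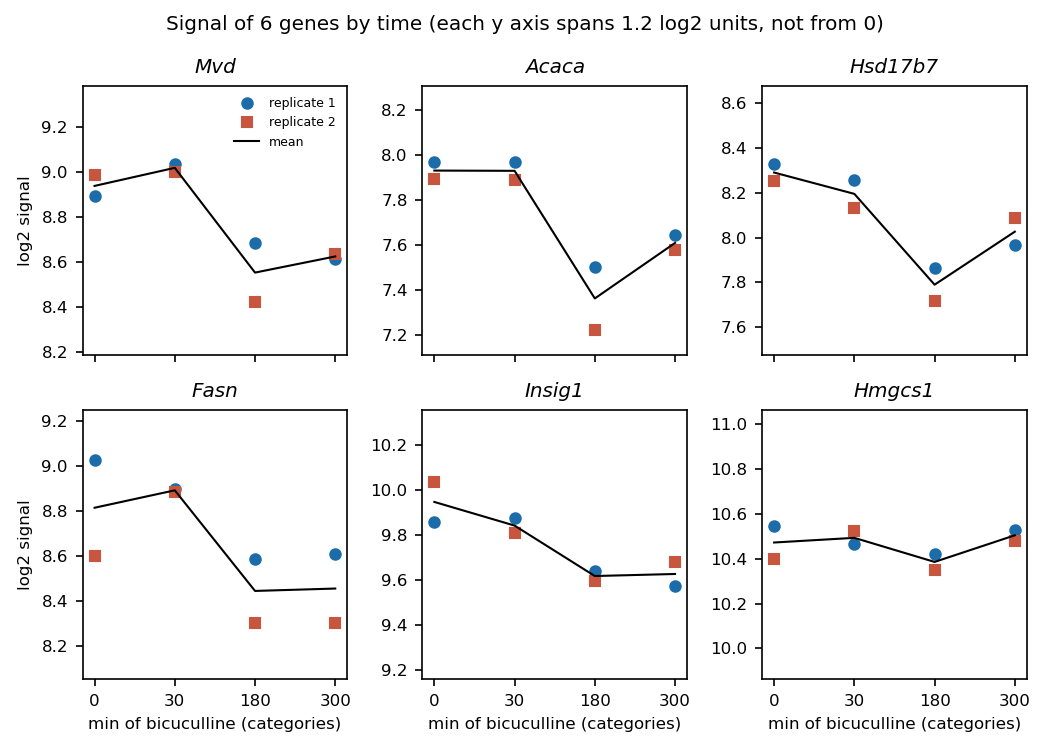
Log2 signal of 6 genes on each array (circles, replicate 1; squares, replicate 2) and their mean (line) at 0, 30, 180 and 300 min of bicuculline (evenly spaced, not to scale); each panel spans the same height and does not start at 0. Mvd, Acaca and Hsd17b7 are lowest at 180 min, the Fasn replicates lie apart at 0, 180 and 300 min, and Hmgcs1 stays between 10.35 and 10.55.

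None of the 5 regulators passed in the late comparison, and Insig1 had the most negative change among them. Insig1, which holds SCAP and SREBP in the endoplasmic reticulum and is itself an SREBP target, had 9.86 and 10.04 at 0 min, 9.87 and 9.81 at 30 min, 9.64 and 9.60 at 180 min and 9.57 and 9.68 at 300 min. Its late arrays were all below its early arrays, at 9.62 ± 0.05 on the late arrays and 9.90 ± 0.10 on the early arrays (SD, n = 4 each), a change of −0.27 ± 0.08 SE (limma adjusted p = 0.125). Insig2, its relative, had 7.20 and 7.28 at 0 min, 7.28 and 6.94 at 30 min, 7.17 and 7.34 at 180 min and 7.03 and 7.23 at 300 min. The times of Insig2 overlapped throughout, with a change of 0.02 and a 95% interval from −0.19 to 0.23.

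Srebf1, the SREBP gene best known for fatty acid synthesis, had 6.66 and 6.78 at 0 min, 6.91 and 6.68 at 30 min, 6.77 and 6.40 at 180 min and 6.62 and 6.39 at 300 min, a late change of −0.21 ± 0.10 SE (limma adjusted p = 0.376). The second replicate was the low one at both late times. Srebf2, the main activator of the cholesterol genes, had 9.32 and 9.23 at 0 min, 9.41 and 9.37 at 30 min, 9.30 and 9.14 at 180 min and 9.38 and 9.23 at 300 min. Scap, the carrier of both factors, had 7.79 and 7.80 at 0 min, 7.88 and 7.89 at 30 min, 7.91 and 7.69 at 180 min and 7.86 and 7.88 at 300 min. The late and early arrays of Srebf2 and of Scap overlapped, with changes of −0.07 and −0.005 and 95% intervals from −0.25 to 0.12 and from −0.19 to 0.18. The differences between these regulators were not tested.

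All 4 fatty acid synthesis genes were below 0 in the late comparison, and Acaca fell while 3 did not pass. Acaca encodes acetyl-CoA carboxylase, which commits acetyl-CoA to fatty acid synthesis. It had 7.97 and 7.89 at 0 min, 7.97 and 7.89 at 30 min, 7.50 and 7.22 at 180 min and 7.64 and 7.58 at 300 min. Every late array was lower than every early array, at 7.49 ± 0.18 on the late arrays and 7.93 ± 0.04 on the early arrays (SD, n = 4 each). Acaca fell by 26.6% (log2 change −0.45 ± 0.09 SE, limma adjusted p = 0.0172). Its change at 180 min alone was −0.57 ± 0.13 SE (limma adjusted p = 0.0835). The late call held without the second 0 min array and without the first 180 min array and was lost without any other single array (highest adjusted p 0.106, limma), while the change stayed between −0.51 and −0.38. A second, dimmer transcript cluster of Acaca had 6.08 and 5.90 at 180 min and 6.04 and 6.14 at 300 min, against 6.57 and 6.25 at 0 min and 6.54 and 6.45 at 30 min, a late change of −0.41 ± 0.10 SE.

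Fasn, the fatty acid synthase gene, had 9.03 and 8.60 at 0 min, 8.90 and 8.89 at 30 min, 8.59 and 8.30 at 180 min and 8.61 and 8.30 at 300 min. The second 0 min array was as low as the higher late arrays, so the groups overlapped, and the change was −0.40 ± 0.11 SE (limma adjusted p = 0.0855). Without the second 0 min array the change was −0.51 and the adjusted p 0.0382 (limma). Scd1, a stearoyl-CoA desaturase gene, had 8.23 and 8.25 at 0 min, 8.27 and 8.12 at 30 min, 7.80 and 7.93 at 180 min and 8.01 and 8.29 at 300 min. It was lowest at 180 min, by −0.37 ± 0.13 SE (limma adjusted p = 0.251), and its second 300 min array was the highest of the 8. Scd2, the main desaturase of the brain, averaged 10.73 ± 0.09 on the late arrays and 10.91 ± 0.04 on the early arrays (SD, n = 4 each) without overlap, a change of −0.18 ± 0.08 SE (limma adjusted p = 0.352).

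Stard4, which encodes a sterol transfer protein, had 8.19 and 8.24 at 0 min, 8.03 and 8.12 at 30 min, 7.80 and 7.95 at 180 min and 7.98 and 7.98 at 300 min. Its late arrays were all below its early arrays, by −0.22 ± 0.08 SE (limma adjusted p = 0.237). Lpin1, a phosphatidate phosphatase gene of glycerolipid synthesis, had a late change of −0.11 ± 0.08 SE and did not pass.

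The next comparisons were of successive times. At 180 against 30 min, 23 of the 28 genes had a change below 0, beside 51.9% of all genes, with a median of −0.18, and none passed (limma, beside 0.171% of all genes downwards and 0.331% upwards). At an unadjusted p under 0.05, 9 were lower and 0 higher, beside 5.64% and 4.82% of all genes. The arrays of 180 min lay wholly below those of 30 min for 16 genes, beside 22.4%, and wholly above for 0, beside 18.2%. At 300 against 180 min, 22 of the 28 genes had a change above 0, with a median of 0.07 against 0.01 for all genes, of which 52.5% were above 0. None passed (limma, beside 0% of all genes in either direction). The arrays of 300 min lay wholly above those of 180 min for 9 genes and wholly below for 0, beside 16.8% and 16.4% of all genes. The highest changes were those of Scd1 (0.28), Lss (0.26), Acaca (0.25), Hsd17b7 (0.24) and Sqle (0.22), and Scd1 alone had an unadjusted p under 0.05, beside 2.33% of all genes upwards and 3.4% downwards. This comparison shares the 180 min arrays with that of 180 and 0 min, so a low 180 min signal enters both. The median was 0.02 without the second 180 min array.

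Genes of neighbouring lipid pathways were compared with the list. Of 121 such genes, 109 were measured, and 70 of them were below 0 in the late comparison (median −0.05). Of these, 5 fell and 0 rose, beside the shares of all genes given for that comparison. Gpam, the acyltransferase gene of the first step of glycerolipid synthesis, had the smallest p, at 6.33 and 6.41 at 180 min and 6.53 and 6.63 at 300 min, against 7.04 and 6.90 at 0 min and 6.89 and 6.95 at 30 min. Gpam fell by 27.8% (log2 change −0.47 ± 0.08 SE, limma adjusted p = 0.00964). Aacs, whose enzyme activates acetoacetate for lipid synthesis, averaged 8.66 ± 0.14 on the late arrays and 9.07 ± 0.03 on the early arrays (SD, n = 4 each, change −0.41 ± 0.09 SE, limma adjusted p = 0.0296). Mbtps1, the gene of the first protease that cuts SREBPs in the Golgi, averaged 7.24 ± 0.06 on the late arrays and 7.63 ± 0.12 on the early arrays (SD, n = 4 each, change −0.39 ± 0.09 SE, limma adjusted p = 0.0347). The sterol exporter gene Abcg1 (−0.43 ± 0.10 SE, limma adjusted p = 0.0389) and the mitochondrial fatty acid synthesis gene Oxsm (−0.38 ± 0.09 SE, limma adjusted p = 0.0352) also fell. Left out in turn, 2 of the 8 arrays each cost the call of Gpam. The calls of Aacs, Mbtps1 and Abcg1 were each lost in this way with 7 of the 8 arrays, and that of Oxsm with all 8.

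By pathway, 1 of 9 measured genes of acetyl-CoA and ketone body supply fell, namely Aacs. The citrate lyase gene Acly and the acetyl-CoA synthetase gene Acss2 had changes of −0.25 ± 0.08 SE and −0.19 ± 0.08 SE without passing. A single gene each fell among 11 of SREBP processing (Mbtps1), 20 of sterol uptake, transport and efflux (Abcg1), 19 of fatty acid elongation and desaturation (Oxsm) and 17 of glycerolipid synthesis (Gpam). None passed among 11 genes of the isoprenoid and ubiquinone branch, 11 of sterol conversion and storage and 11 nuclear receptor genes of lipid supply. The medians of these lists lay between −0.10 and 0.08. The highest change was that of Hsd17b12, a keto reductase gene of fatty acid elongation, at 0.34 ± 0.09 SE (limma adjusted p = 0.0613).

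**Figure D4:**
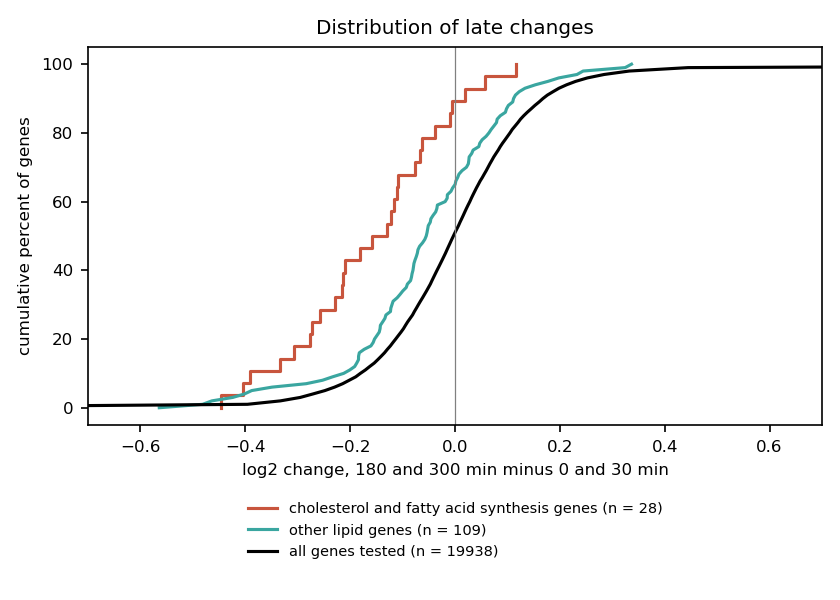
Cumulative percent of genes (vertical axis) at or below each log2 change between late and early arrays (horizontal axis) for the 28 cholesterol and fatty acid synthesis genes, 109 other lipid genes and all 19938 genes tested. The curve of the 28 genes lies left of the others over most of its range, with medians of −0.14, −0.05 and −0.003.

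Markers of glial cells were set beside these values, since astrocytes express the pathway. The summed signal of the 10 astrocyte markers on the linear scale ran from 891 to 1030 on the late arrays and from 1009 to 1188 on the early arrays. The 7 oligodendrocyte markers ran from 218 to 233 on the late arrays and from 223 to 242 on the early arrays. The 7 microglial markers ran from 201 to 244 on the late arrays and from 205 to 221 on the early arrays, and the 6 pan-neuronal genes from 7136 to 7976 on the late arrays and from 7521 to 8325 on the early arrays. All these ranges overlapped. Gene by gene, 9 of the 10 astrocyte markers were below 0 in the late comparison (90% against 89.3% of the 28 genes), with a median of −0.08. Of these markers, Slc1a2 (−0.27) and Gja1 (−0.29) were lower at an unadjusted p under 0.05, Slc1a2 and Aldh1l1 (−0.15) had late arrays wholly below the early ones, and none passed (limma). Of the 6 pan-neuronal genes 4 were below 0, with a median of −0.03, and the 2 of them with an unadjusted p under 0.05 were Map2 (−0.30) and Tubb3 (−0.28), both with late arrays wholly below the early ones and neither past the test. Of the 7 oligodendrocyte markers 4 were below 0 and of the 7 microglial markers 2, and none passed. Among the 6 markers of oligodendrocyte precursors 5 were below 0, with a median of −0.06 and a lowest change of −0.20. One marker of these, Olig2, was lower at an unadjusted p under 0.05, and none passed (limma). At 300 against 0 min all 6 precursor markers were below 0. Of the 5 excitatory neuron markers 3 were below 0, with a median of −0.015 and a lowest change of −0.20. Among them Slc17a6 alone, a vesicular glutamate transporter gene, passed. Slc17a6 rose, at 8.16 ± 0.12 on the late arrays and 7.79 ± 0.01 on the early arrays (SD, n = 4 each, change 0.38 ± 0.09 SE, limma adjusted p = 0.0406). Of the 6 inhibitory neuron markers 3 were below 0 and none passed. At an unadjusted p under 0.05, Dlx2 (−0.33) was lower and Gad2 (0.20) higher, both with late arrays that did not overlap the early ones. The part that these marker differences have in the lower lipid synthesis signals was not tested.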

How the data were processed

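Biotin-labelled RNA of 8 cultures was hybridised to Affymetrix Mouse Gene ST 1.0 arrays, per the labels' protocols. The deposited table gives, for each array, 1 value per transcript cluster, read as log2 since all lie between 1.22 and 14.96. How background was corrected, probes summarised and arrays normalized, and on which build, is not given in the sources used here; a background left in dim signals would shrink changes. Of 35399 rows, 21789 had 1 symbol, 1621 several and 11989 none in the platform annotation; the brightest row stood for each of 19938 genes. No further normalization was applied.

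A mean per time was fitted to all 8 arrays with limma 3.58.1 in R 4.3.3 (lmFit, eBayes; 4 residual and 10.1 prior degrees of freedom), with two-sided p-values adjusted by Benjamini-Hochberg across the 19938 genes; an adjusted p under 0.05 passed. SE is the moderated standard error and SD that of the named arrays. The fit was tested on simulated data. The genes, lists and comparisons were chosen with earlier results of these data known. Genes described array by array were those that passed, the 12 with the smallest F-test p and the 5 regulators; of neighbouring pathways, those that passed and up to 3 with the smallest F-test p; marker genes beside a count were named after their values were seen. The labels call the replicates biological and name no separate dissection, so a p-value reflects only how far these arrays differ, and precision is limited by how few arrays there are. Alternatives were another normalization, filter, prior or row choice, a replicate block and leaving out each array. Markers of other cell types were described, not tested as lists. Promoter windows are RefSeq's, on GRCm38.p6.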

Additional observations from a re-analysis of the deposited data

How the results depend on the processing

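The medians of the 28 genes kept their sign in every comparison against 0 min and in the late comparison under all alternatives run, and the count whose late arrays all lay below the early ones stayed between 9 and 11. Calls of single genes did not hold as well. In the late comparison 4 genes passed with dim genes removed, 5 with a trended robust prior and 0 when every row was tested, against 2; leaving out 1 array gave 0 to 2. Calls at 180 against 0 min were 1 with dim genes removed and 2 with the robust prior, against 0, at 180 against 30 min likewise 1 and 2, and in the F test 1 and 2. Acaca and Mvd had adjusted p of 0.153 and 0.180 when every row was tested. Hsd17b7 passed in the late comparison under median centring (0.0478), with dim genes removed (0.0345) and with the robust prior (0.0201). Same-numbered arrays did not deviate together over all genes (r between −0.0941 and 0.0922 across genes). Such a correlation cannot tell whether they share an origin that acts on some genes, and the labels do not say. The replicate block changed 1 call among the genes named, that of Fasn in the late comparison (−0.40, limma adjusted p = 0.0381), and left the 2 calls of the list in place.

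Genes lower at an unadjusted p under 0.05 at 300 against 0 min were 4 after quantile normalization and 4 when every row was tested, against 7, and 2 to 7 without 1 array; at 180 against 0 min they were 5 to 11. Without 1 array the median ran from −0.20 to −0.10 at 300 against 0 min and from 0.020 to 0.096 at 300 against 180 min. Signs turned for uncalled values near 0: Scap in the late comparison was 0.030 after quantile normalization, and under median centring Scap at 180 against 0 min was −0.033, Insig2 −0.025 and Insig2 in the late comparison −0.0050. Leaving out 1 array gave, at 180 against 0 min, −0.31 to 0.048 for Srebf1, −0.13 to 0.029 for Srebf2, −0.10 to 0.11 for Scap and −0.071 to 0.099 for Insig2. At 300 against 0 min it gave −0.23 to 0.050 for Scd1, −0.20 to 0.0059 for Lss and −0.038 to 0.11 for Srebf2, and in the late comparison −0.17 to 0.018 for Nsdhl, −0.059 to 0.049 for Scap and −0.067 to 0.10 for Insig2. Over all genes, calls in the late comparison were 442, against 40 when every row was tested and 154 to 372 without 1 array. At 180 against 0 min they were 66, against 102 with dim genes removed, 108 with the robust prior, 1 when every row was tested and 19 with only those times fitted. At 300 against 0 min they were 57, against 99, 91 and 5 for the first 3 of these settings, and at 180 against 30 min 100, against 156 with the robust prior, 9 when every row was tested and 55 with only those times fitted. Leaving out 1 array gave 12 to 21 calls at 30 against 0 min (19 with all arrays), 15 to 68 at 180 against 0 min, 17 to 61 at 300 against 0 min, 17 to 93 at 180 against 30 min and 0 to 14 at 300 against 180 min (0 with all arrays), so the percentages of all genes set beside the 28 genes move with single arrays. The causes of these differences were not tested. The comparison of only the times compared was not applicable to the late contrast and the F test, which use all arrays. Leaving out an array also takes 1 of the 4 residual degrees of freedom.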
